A study of Rattus norvegicus with 89 samples.

Results

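The kidneys of rats dosed with cadmium for 5 days were compared with those of rats given saline for 5 days, across all measured genes. The groups were taken from the sample titles, which put 6 rats (3 males, 3 females) in the cadmium group and 5 rats (3 males, 2 females) in the saline group, 11 of the 89 rats of the series. The series holds 15 groups, since valproic acid, doxorubicin, cadmium, cisplatin, saline and the aminoglycosides gentamicin and tobramycin were each given daily and sampled at day 1 and day 5, and untreated (naive) rats were added as a further control. All rats were Sprague-Dawley Crl:CD(SD) animals of about 7 to 8 weeks at the start, acclimated for 6 days and housed individually. RNA came from homogenised apical parts of both kidneys of a rat, so each array averages all cell types of that tissue, and a lower signal from fewer cells of a type cannot be told apart from less RNA per cell. The form, dose and route of the cadmium and the clock time at which the kidneys were removed are not stated in the sources used here.

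Cadmium is a toxic metal that accumulates in the kidney cortex. Cells bind it with metallothioneins, small cysteine-rich proteins whose genes are switched on by the zinc-sensing factor MTF1 at metal response elements, and the proximal tubule takes up the metal-metallothionein complex through the endocytic receptors megalin and cubilin. The kidney also has a strong circadian clock, in which the activators BMAL1 and CLOCK or NPAS2 drive the Per, Cry, Nr1d and Dbp genes through E-boxes, and the products of those genes hold the activators down, so that the Dbp and Per genes peak at a time of day when Bmal1 and Npas2 are low.

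The values are signals per probe set, scaled here to a common mean, and changes are differences of log2(signal + 16), cadmium minus saline, adjusted for sex. A signal under 33.2, the 40th percentile of all values, is called dim below. All 11 arrays resembled each other, with rank correlations from 0.914 to 0.975, and 0 arrays contradicted their sex label. In the arrays of cadmium rat 5F140 and saline rat 1F106, the 3′ probe set of the control gene GAPDH exceeded the 5′ one by 1.45 and 1.57 on the log2 scale, against 0.154 to 0.596 in the other 9 arrays, a difference that grows as RNA is degraded. Of the listed marker genes with a probe set on the array, tested or not, 26 of 28 proximal tubule transporters, 17 of 18 collecting duct genes and 9 of 9 podocyte genes lay above 33.2 in all 11 arrays, and 1 of 7 adrenal cortex genes did so. The treatment text is absent for saline rat 1M4, whose group rests on its title.

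No gene passed the test between cadmium and saline at day 5 (limma, Benjamini-Hochberg adjusted p under 0.05). Of 11415 genes tested, 0 were called (0.0%) and the smallest adjusted p was 0.378, and 400 genes had an unadjusted p under 0.05, where 571 would be expected by chance alone. The median log2 change over all genes was 0.0054, 51.8% of genes were higher in cadmium rats, and 14 genes differed by more than 1 on the log2 scale. On the higher side, Usp2, Dbp, Tef and Per2, 4 of the 5 genes with the smallest p, belong to the circadian clock or are its outputs, and the other one was Clu. The lower side was mixed: Cxcl1 had the smallest p, the clock activator Bmal1 came next, and Pou3f1, Cdk2ap2, Rnf125 and Hsph1 followed. The gene with the greatest change of all, Fam111a (2.04 ± 1.50, SE), had an unadjusted p of 0.205.

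**Figure D1:**
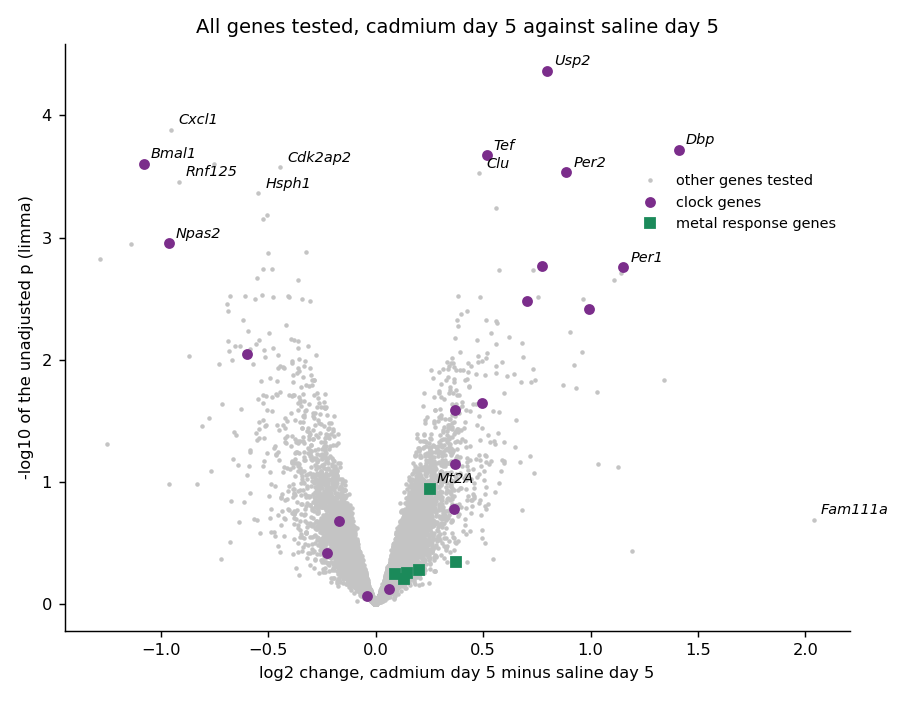
Log2 change between cadmium and saline at day 5 (x axis) against -log10 of the unadjusted limma p (y axis) for the 11415 genes tested, with clock genes as purple circles and metal response genes as green squares. The clock gene Usp2 (0.80) stands highest on the right, Cxcl1 (-0.95) stands above the clock gene Bmal1 (-1.08) on the left, and the metal response genes lie low, between 0.09 and 0.38.

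The clock outputs and repressors stood higher in cadmium rats. Dbp, a transcription factor that CLOCK and BMAL1 drive directly, had signals of 228, 179 and 450.4 in saline males and 415 and 129.1 in saline females, against 854, 903 and 905 in cadmium males and 524, 571 and 439.9 in cadmium females. All 6 cadmium rats exceeded the mean of the saline rats of their sex, and the groups met only where the lowest cadmium female lay just under the highest saline male. The log2 change was 1.41 ± 0.27 (SE), 2.66-fold, with an adjusted p of 0.378 in the fit on both groups. Tef, a relative of Dbp that binds the same D-box sites, had signals of 246 to 347 in saline rats and 334 to 498 in cadmium rats, a change of 0.52 ± 0.10. Usp2, a deubiquitinating enzyme with a daily rhythm, was at 294, 383 and 299 in saline males and 203 and 274 in saline females, against 603, 762 and 609 in cadmium males and 360.3, 404 and 314 in cadmium females, a change of 0.80 ± 0.13. For Tef and Usp2 too, all 6 cadmium rats exceeded the saline mean of their sex and the ranges overlapped.

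The Period genes, which encode the repressors that close the clock's feedback loop, showed the same direction. Per1 showed a gap between the groups: saline rats ran from 54.3 to 215 and cadmium rats from 222 to 378, a change of 1.15 ± 0.29. Per2 was at 252, 193 and 338 in saline males and 239 and 112.6 in saline females, against 596, 526.2 and 494 in cadmium males and 252, 278 and 312 in cadmium females. Its change was 0.89 ± 0.18. Within each sex every cadmium rat was above every saline rat. The margin was wider in males (494 against 338) than in females (252 against 239). The share of all genes separated within each sex was not counted. Per3 changed by 0.99 ± 0.28, again with 6 of 6 cadmium rats above the saline mean of their sex. The genes of the REV-ERB repressors, which shut off Bmal1, were higher by 0.78 ± 0.20 (Nr1d1, 5 of 6 rats) and 0.71 ± 0.20 (Nr1d2, 6 of 6 rats).

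The activators of the loop stood lower. Bmal1, the core activator, had signals of 100.3, 123.7 and 78.8 in saline males and 79.5 and 57.9 in saline females, against 30.6, 24.3 and 20.7 in cadmium males and 23.6, 48.6 and 56.6 in cadmium females. Every cadmium rat lay below every saline rat, although the highest cadmium rat was close to the lowest saline rat, and 4 of the 6 cadmium signals were dim, so that the change of -1.08 ± 0.22 may understate the difference. Npas2, which can take the place of CLOCK as partner of BMAL1, was at 121.4 to 219 in saline rats and 37.2 to 128.1 in cadmium rats, a change of -0.96 ± 0.23 with 0 of 6 cadmium rats above the saline mean of their sex. Nfil3, which represses through the D-box sites that DBP activates, changed by -0.60 ± 0.19. Clock itself (-0.17 ± 0.13), Cry1 (-0.22 ± 0.25) and Rora (0.06 ± 0.20) differed by about their SE or little more.

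**Figure D2:**
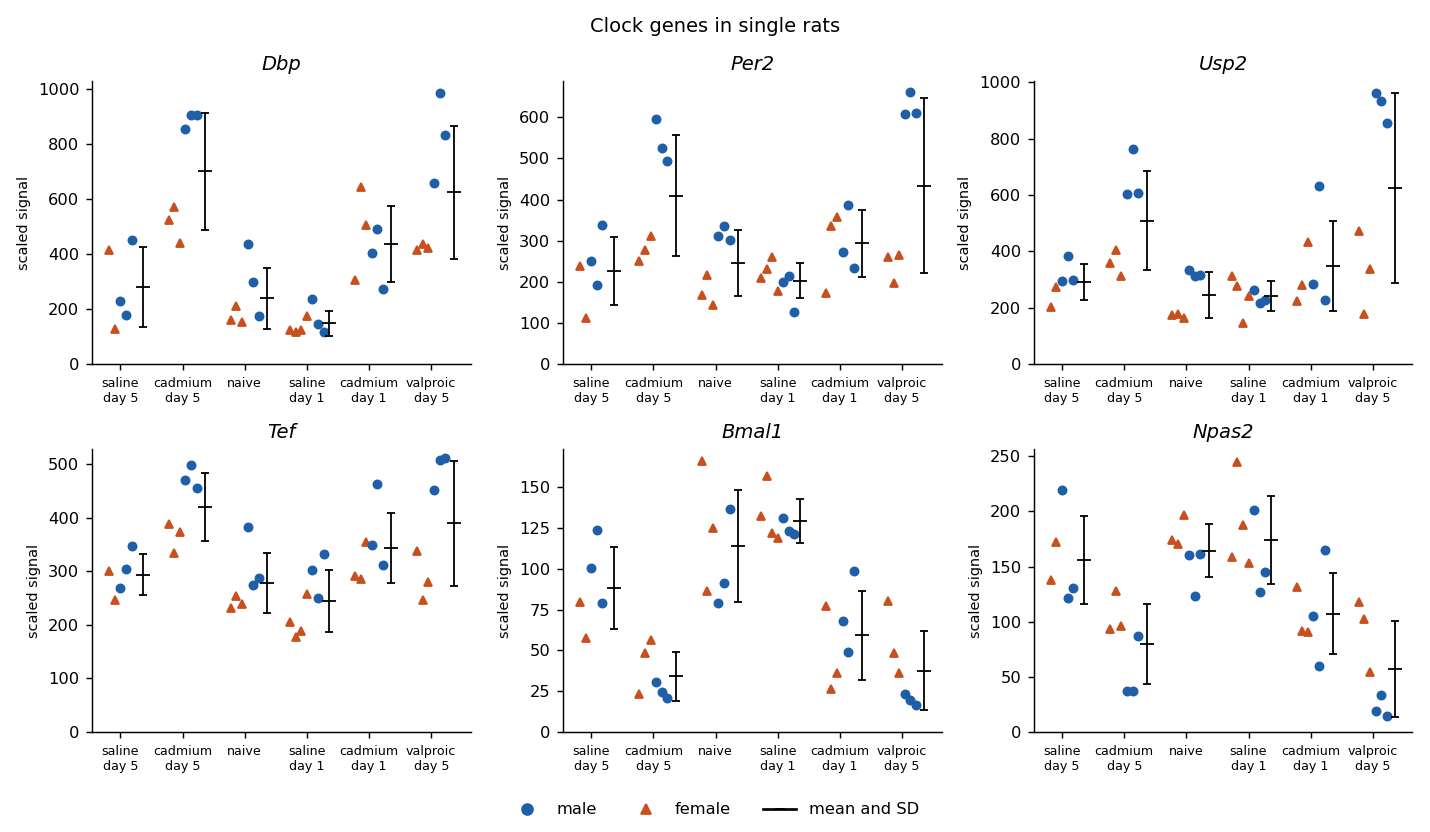
Scaled signal (y axis) of 6 clock genes in every rat of 6 groups (x axis), males as blue circles and females as orange triangles, with the group mean and SD in black. Dbp, Per2, Usp2 and Tef were higher and Bmal1 and Npas2 lower in cadmium rats at day 5 than in saline and naive rats. With the sexes together, the Dbp signals of valproic acid rats at day 5 (413.8 to 983.5) covered those of cadmium rats.

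Counted as lists, 12 of 13 tested genes of the Per and Rev-erb phase were higher in cadmium rats, with a median log2 change of 0.70, and 10 of them had an unadjusted p under 0.05, against 196 of all genes tested on the higher side (1.72%). The exception was Hlf at -0.04 ± 0.21, whose other probe sets changed by -0.07 and 0.22. Of the 6 tested genes of the opposite phase, 5 were lower, with a median of -0.41, and 3 had an unadjusted p under 0.05, against 204 of all genes on the lower side (1.79%). The medians over all genes were 0.0054 in the same fit. In single rats, the mean change of the first list ran from 0.45 (5F142) to 0.86 (5M42) and that of the second from -0.63 (5M41) to -0.23 (5F142), so each of the 6 cadmium rats moved both lists the same way. Both lists were drawn up with earlier results of these data known and carry no test of their own. Without the 2 arrays of high GAPDH difference, the medians were 0.55 and -0.33.

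The sequences shown, of a gene from each phase, each hold a letter match to an element known for the loop. Whether these matches are bound was not tested. RefSeq windows from 250 bases before to 50 after the start (rat assembly GRCr8) were found for 16 clock genes by symbol. Both are printed 5′ to 3′ on the strand of the gene, with the element in capitals. The E-box (CACGTG, a palindrome) is marked in Tef (chr7:115206577-115206876, plus strand), where it starts 198 bases before the gene's start, and the ROR element bound by REV-ERB and ROR proteins (TAGGTCA or TGGGTCA, both strands) is marked in Bmal1 (chr1:176766078-176766377, plus strand), where it starts 16 bases before it.
Tef: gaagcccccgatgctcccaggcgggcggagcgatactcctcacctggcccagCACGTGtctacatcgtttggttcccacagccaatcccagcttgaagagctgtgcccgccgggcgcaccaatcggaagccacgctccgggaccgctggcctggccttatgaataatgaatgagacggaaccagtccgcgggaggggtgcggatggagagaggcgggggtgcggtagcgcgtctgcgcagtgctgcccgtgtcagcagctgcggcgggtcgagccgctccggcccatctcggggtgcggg
Bmal1: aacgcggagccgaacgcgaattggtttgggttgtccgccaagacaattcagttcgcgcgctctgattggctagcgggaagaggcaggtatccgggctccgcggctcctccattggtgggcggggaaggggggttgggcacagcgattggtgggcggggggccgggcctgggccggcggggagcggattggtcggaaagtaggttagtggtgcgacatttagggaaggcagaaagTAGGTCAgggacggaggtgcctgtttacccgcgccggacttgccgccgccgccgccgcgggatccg
An E-box of these letters stood in 3 of 11 windows of the Per and Rev-erb phase (Tef, Bhlhe40 and Bhlhe41). None stood in the windows of Dbp, Usp2, Per1, Per2, Per3, Nr1d1 or Nr1d2. It stood in 6.65% of the 27457 windows of all genes and in 9.52% of the 9503 windows of tested genes. A ROR element stood in 1 of 5 windows of the opposite phase, in 6.51% of all windows and in 5.3% of those of tested genes. The signals of both genes are given above, Tef being higher and Bmal1 lower in cadmium rats.

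Pooling the spread of all 89 arrays, with the same contrast, called 7 genes (0.0613% of 11415; limma, adjusted p), 3 of them higher and 4 lower, with 693 genes at an unadjusted p under 0.05. Dbp rose by 1.41 (adjusted p 0.0162), Tef by 0.53 (0.0229) and Nr1d2 by 0.70 (0.0292), and each was higher in 6 of 6 cadmium rats than the saline mean of their sex. Hnrnpc, which encodes an RNA-binding protein that coats nascent transcripts, fell by 0.33 (0.0162), from 1381 to 1562 in saline rats to 1121 to 1304 in cadmium rats, with no overlap. Rnf125, a ubiquitin ligase gene, fell by 0.89 (0.0228). Its saline males were at 238, 193 and 156.3 and its saline females at 76.4 and 122.2, while all 6 cadmium rats lay between 57.8 and 83.3. Cdk2ap2, whose product associates with a cell cycle kinase, fell by 0.45 (0.0229), from 883 to 1223 to between 745 and 902. Slc35f2, a solute carrier gene, fell by 0.52 (0.0229), from 174 to 239 to between 89.6 and 165, with no overlap.

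These calls rested on few rats. Leaving out saline male 1M4 or saline male 1M5 left 0 calls, while leaving out saline female 1F105 gave 15 and leaving out saline female 1F106 gave 13. Without cadmium rats 5M40, 5M41 or 5F141 there were 3, 4 and 4 calls. Without both 5F140 and 1F106, the 2 arrays of high GAPDH difference, 2 calls remained, and these were Hnrnpc and Rnf125.

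Across all genes tested, 14 (0.123%) were higher in every cadmium rat than in every saline rat and 8 (0.0701%) were lower in every one. Of the 19 tested clock genes, Per1 was among the first and Bmal1 among the second. The others above included Notch3, a receptor of vascular smooth muscle, and Kcnj6, a potassium channel, and those below included Birc3, an inhibitor of apoptosis, and Cxcl1, a neutrophil chemokine. These 4 were picked after their values were seen. Cxcl1 was dim in all 11 rats, at 16 to 32.1 in saline rats and 1.39 to 11.1 in cadmium rats, so its change of -0.95 ± 0.18 compares values near background.

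The genes known for the response to cadmium itself showed no change that passed the test. All 6 tested genes of metallothionein and metal response had a change above 0, with a median log2 change of 0.17. Of these, 0 had an unadjusted p under 0.05, against 1.72% of all genes tested on the higher side. None separated the groups, against 0.123% of all genes above every saline rat. For 6 genes, counts of 0 are near these shares and do not tell the list apart from other genes. The signs also depended on the processing. Other probe sets of Mtf1 were at -0.06 and 0.19. Under the alternatives, the lowest changes of Mt1, Mt3 and Slc30a1 were -0.05, -0.04 and -0.16. Mt2A, a main metallothionein gene, was at 3987, 4092 and 3527 in saline males and 2523 and 3738 in saline females, against 5246, 4838 and 3856 in cadmium males and 4797, 2742 and 3717 in cadmium females. The groups overlapped over most of their range, and 4 of 6 cadmium rats exceeded the saline mean of their sex (0.25 ± 0.15). Mt1, the other inducible form, was at 69.9, 58.4 and 57.8 in saline males and 52.8 and 126 in saline females, against 55.8, 84.9 and 89.2 in cadmium males and 177, 53 and 58.8 in cadmium females, a change of 0.13 ± 0.26. The highest rat of each group for Mt1, at 126 and 177, was 1F106 or 5F140, the rat with the high GAPDH difference, and the part of RNA quality in this was not tested. Slc30a1, the zinc exporter that MTF1 also controls, ran from 18.1 to 162 in saline rats and 13.9 to 215 in cadmium rats (0.38 ± 0.49), its lowest rats again being 1F106 and 5F140. Without 5F140 the median of the metal genes was 0.0221.

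The promoters of both metallothionein genes hold letter matches to the metal response element, which is why they are shown. Capitals mark the core of the metal response element (TGCACNC or TGCGCNC, both strands). Mt1 (chr19:10832926-10833225, minus strand) has 6 and Mt2A (chr19:10838659-10838958, minus strand) has 4, while 25.0% of all windows of this length hold at least 1 and 0.455% hold 4 or more. Among windows of tested genes, the shares are 36.3% and 0.758%. The windows of the clock genes Dbp and Clock also hold 4 each, so such a count is not particular to metal genes.
Mt1: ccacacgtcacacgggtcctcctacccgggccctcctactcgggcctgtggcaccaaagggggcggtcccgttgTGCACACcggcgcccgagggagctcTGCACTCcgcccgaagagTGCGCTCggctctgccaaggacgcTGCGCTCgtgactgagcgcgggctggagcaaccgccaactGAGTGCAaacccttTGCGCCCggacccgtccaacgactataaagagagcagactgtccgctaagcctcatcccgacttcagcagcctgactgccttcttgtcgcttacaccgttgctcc
Mt2A: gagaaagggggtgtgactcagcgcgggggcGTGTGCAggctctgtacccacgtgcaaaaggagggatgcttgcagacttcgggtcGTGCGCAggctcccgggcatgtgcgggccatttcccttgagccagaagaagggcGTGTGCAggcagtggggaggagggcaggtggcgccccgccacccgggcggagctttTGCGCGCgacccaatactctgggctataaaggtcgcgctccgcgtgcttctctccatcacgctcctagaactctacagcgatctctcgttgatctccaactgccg
Mt1 and Mt2A thus differed from saline by 0.13 and 0.25 on the log2 scale at day 5, less than 2 SE in both cases.

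**Figure D3:**
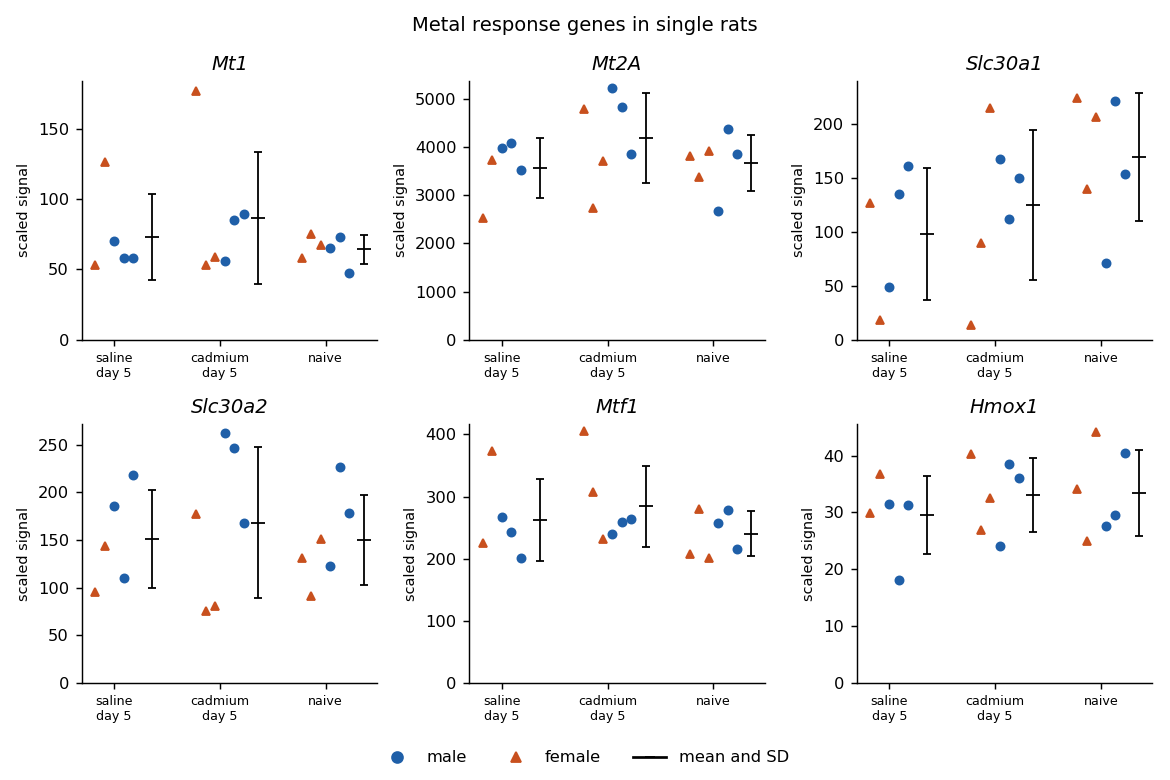
Scaled signal (y axis) of 6 metal and haem response genes in saline and cadmium rats of day 5 and in naive rats (x axis), males as blue circles and females as orange triangles, with mean and SD in black. The groups overlap in every panel, and the highest Mt1 values of the saline and cadmium groups (126 and 177) belong to single females.

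Transport of the metal and the oxidative response were equally near saline. Of 28 tested transporters of zinc, iron and other divalent metals, 16 were higher and the median change was 0.02. All 8 tested genes of the megalin and cubilin pathway were lower, with a median of -0.08. An unadjusted p under 0.05 was reached by 0 of them, against 1.79% of all genes tested on the lower side. Without saline rat 1F106 that median was -0.015. Lrp2, which encodes megalin, was at 4862 to 7051 in saline rats and 4633 to 6043 in cadmium rats (-0.07 ± 0.11). Of 23 Nrf2 targets 11 were higher (median -0.02), and Nqo1 (-0.06 ± 0.17), Gclc (0.02 ± 0.10) and Hmox1, the haem oxygenase gene (0.10 ± 0.15), each differed by less than their SE.

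Markers of tubular damage were not higher as a group either. Of 24 tested injury markers 10 were higher, with a median of -0.02. Havcr1, the gene of KIM-1, was dim in all 6 cadmium rats (10.4 to 29.6) and in 3 of 5 saline rats (13.9 to 46.3). Lcn2, the gene of NGAL, was at 49.8 to 86.5 in saline rats and 45 to 96.8 in cadmium rats (-0.10 ± 0.17), and Spp1, osteopontin, at 971 to 4037 and 831 to 3447 (-0.17 ± 0.38). Clu, which encodes the secreted chaperone clusterin, stood apart from the list: saline males were at 465, 431 and 543 and saline females at 850 and 799.7, against 766, 678 and 602 in cadmium males and 1060.0, 1282 and 1107 in cadmium females. Within each sex every cadmium rat was above every saline rat (0.48 ± 0.10, adjusted p 0.378). Across the sexes the groups overlapped, and the share of all genes separated within each sex was not counted. The change of Clu was the highest of the 24 listed genes, and the lowest was -0.65. Cdkn1a, the p53 target that arrests the cell cycle, changed by -0.09 ± 0.16, and of 15 tested p53 targets 8 were higher.

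Chaperone genes went in both directions. Hsph1, a cytosolic HSP110 chaperone, was at 1128 to 1570.0 in saline rats and 745 to 1221 in cadmium rats, where only 1F106 lay below the highest cadmium rat (-0.55 ± 0.12). Hspa1a, the stress-inducible HSP70, was at 337 to 511 in saline rats and 343 to 719 in cadmium rats (0.34 ± 0.14). In the endoplasmic reticulum, Manf, a secreted stress protein, was at 754, 555 and 898 in saline males and 687 and 670.3 in saline females, against 533, 560.2 and 462 in cadmium males and 440.3, 477 and 417 in cadmium females (-0.53 ± 0.12). Hspa5, which encodes the chaperone BiP, was also lower (-0.38 ± 0.12), both with 0 of 6 cadmium rats above the saline mean of their sex. Over the lists, 8 of 17 heat shock genes and 8 of 22 endoplasmic reticulum and integrated stress genes were higher, with medians of -0.05 and -0.09 (-0.022 without 5F141 and -0.016 without 5F142), and none of these genes was called in this comparison.

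Genes of dividing cells were mostly lower. Of 29 tested genes of the cell cycle and replication 4 were higher, the median was -0.12 and 5 were lower at an unadjusted p under 0.05, against 204 of all 11415 genes tested (1.79%). Without cadmium male 5M41 the median was -0.075. Top2a, the topoisomerase of replicating cells, was at 32 to 59.7 in saline rats and 19.2 to 34.6 in cadmium rats (-0.56 ± 0.15), and Mki67, the proliferation marker, at 30.5 to 58.5 and 19.6 to 33.9 (-0.50 ± 0.15). Both were dim in 5 of 6 cadmium rats. Of 16 glucocorticoid-responsive genes 12 were higher (median 0.19), among them Per1, which the clock lists also hold. Sgk1, a kinase that raises sodium reabsorption, was at 807 to 2366 in saline rats and 1378 to 2477 in cadmium rats (0.68 ± 0.22), and Tsc22d3, the gene of GILZ, changed by 0.36 ± 0.15. Without saline female 1F105 the median of that list was 0.09.

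Along the nephron, the medians of both ends lay within 0.12 of 0. Of 28 proximal tubule transporters 6 were higher, with a median of -0.11, and the mean change in single rats ran from -0.64 (5F141) to 0.18 (5M40). Leaving out 1 rat put that median between -0.17 (without 1F105) and -0.055 (without 5F141). Slc5a2, the glucose transporter SGLT2, was at 266 to 1065 in saline rats and 158.7 to 815 in cadmium rats (-0.38 ± 0.43). Of 17 collecting duct genes 14 were higher, with a median of 0.12, which was 0.049 without 5M42 and 0.20 without 5M40. Scnn1a, a subunit of the sodium channel that Sgk1 regulates, was at 150.9 to 253 in saline rats and 203 to 479.8 in cadmium rats, 5F141 being highest (0.37 ± 0.14). The summed signal of the proximal list was 36570 to 55180 in saline and 32260 to 58840 in cadmium rats, and that of the collecting duct list 11510 to 18270 and 10920 to 20850. The share of each tissue zone in a sample was not tested.

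Immune and blood genes gave no common shift. Of 5 tested red blood cell genes 2 were higher, with a median of -0.13, which was -0.23 to -0.064 when each rat was left out. Their mean change in single rats ran from -0.38 (5M40) to 0.52 (5F142). Of 15 macrophage and granulocyte genes 4 were higher (median -0.15), with a summed signal of 4459 to 5171 in saline and 3181 to 6034 in cadmium rats. Without cadmium male 5M42 that median was -0.024. Of 24 interferon response genes 18 were higher (median 0.07), but the mean change was 0.96 in rat 5F140 and -0.35 in rat 5M40, and without 5F140 the median was -0.10. Lymphocyte markers were near background, with 1 of 15 genes on the array above 33.2 in all 11 arrays. Adherens junctions, a known target of cadmium in cultured epithelium, showed no shift in RNA: Cdh1, the gene of E-cadherin, changed by -0.00 ± 0.15, and 10 of 21 cadherin and tight junction genes were higher.

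Many list medians did not keep their sign. When each rat was left out in turn, 20 of 41 lists had medians on both sides of 0, while the medians of the 2 clock lists stayed between 0.49 and 0.78 and between -0.54 and -0.32.

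**Figure D4:**
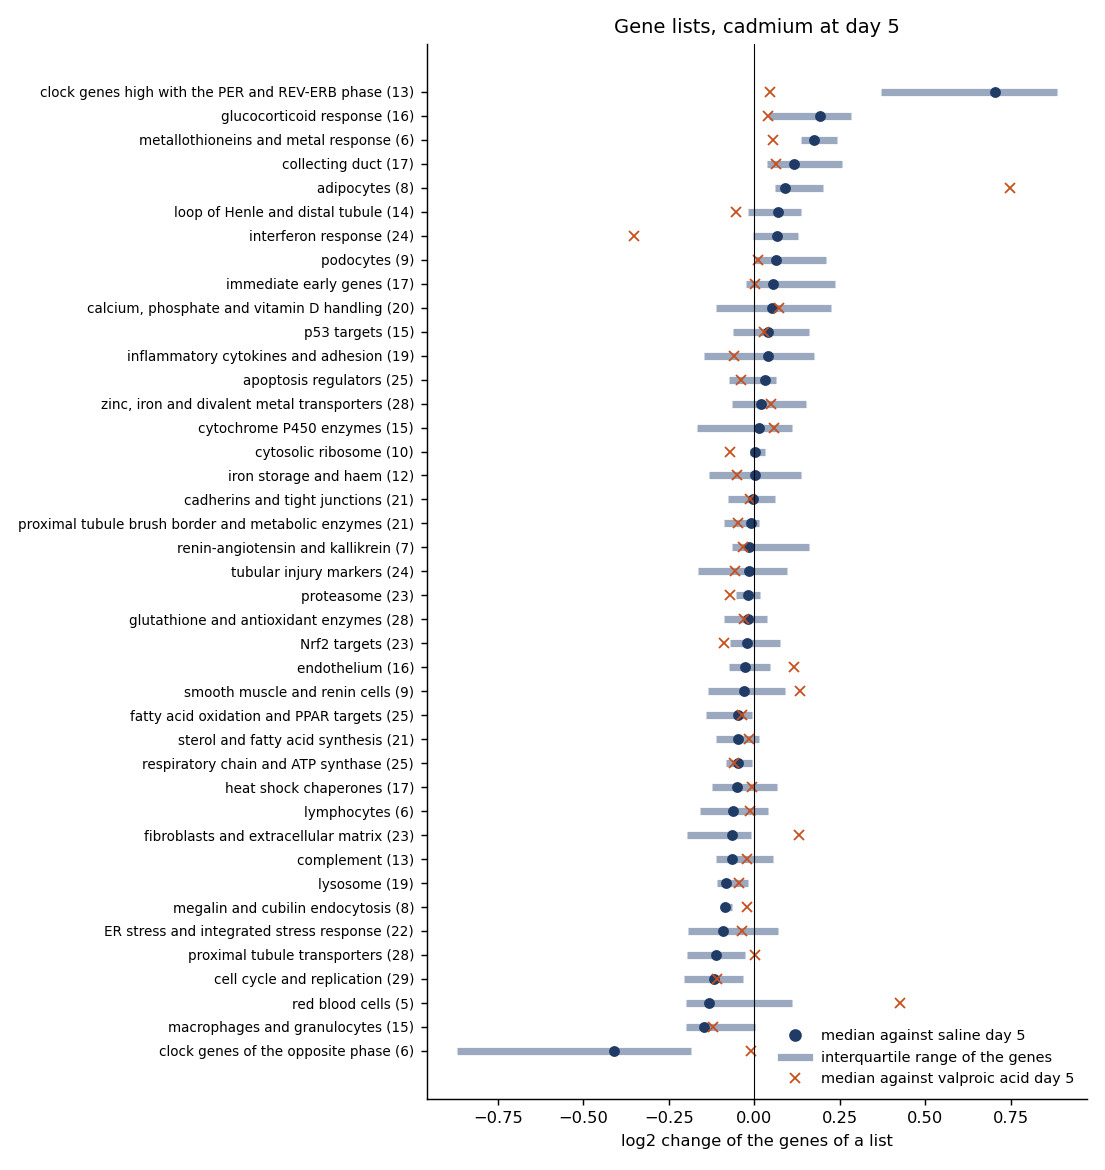
Median log2 change (dark points) and interquartile range of the genes (bars) for the 41 gene lists with at least 5 tested genes, cadmium against saline at day 5, with the median against valproic acid at day 5 as orange crosses (the number of tested genes is in brackets). The 2 clock lists lie outside the others at 0.70 and -0.41 against saline. They lie at 0.05 and -0.01 against valproic acid, a group chosen because its clock genes stood close to those of cadmium rats.

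Naive rats were a control group of their own. Against the 6 naive rats, 15 genes were called (0.131% of 11415; limma, adjusted p), 5 higher and 10 lower, and 1052 genes had an unadjusted p under 0.05. This comparison shares its cadmium rats with the one above. Naive rats were not dosed, so cadmium and the daily dosing itself cannot be told apart in it. The 5 that rose were all clock genes: Usp2 by 0.99 ± 0.09 (adjusted p 0.00021), Dbp by 1.53 ± 0.17 (0.00142), Per2 by 0.69 ± 0.10 (0.0128), Tef by 0.57 ± 0.09 (0.0201) and Nr1d2 by 0.76 ± 0.14 (0.0477). All 6 cadmium rats exceeded the naive mean of their sex for each of these 5. For Dbp every cadmium rat exceeded every naive rat, though by a small margin (439.9 against 438). How many of all genes separated cadmium from naive rats was not counted.

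Of the 10 that fell, Bmal1 (-1.38 ± 0.18, adjusted p 0.00788) and Npas2 (-0.999 ± 0.18, 0.0477) were the clock activators. Naive rats had Bmal1 signals of 78.8 to 166, all above the 20.7 to 56.6 of cadmium rats. Manf fell by 0.81 (0.00771), from 734 to 1026 in naive rats to 417 to 560.2 in cadmium rats, with no overlap. For Bmal1 and Manf too, the share of all genes without overlap with naive rats was not counted. Pdk4, which shuts glucose carbon out of the mitochondria in fasting, fell by 0.96 (0.0128), and Chordc1, a partner of HSP90, by 0.51 (0.0128). Against saline at day 5, Pdk4 and Chordc1 changed by -0.45 and -0.22. Cdk2ap2 fell by 0.44 (0.0408), as it did against saline in the fit on all arrays. The others were Palm3, Cemip, Ndrg1 and Slc16a1, named after their values were seen. Of these, Slc16a1, the lactate and pyruvate carrier MCT1, had the greatest fall, 1.99 ± 0.33 on the log2 scale. Its mean was 796 ± 312 (SD, n = 6) in naive rats and 192 ± 97.3 (SD, n = 6) in cadmium rats. Against saline at day 5, Palm3, Cemip, Ndrg1 and Slc16a1 were not called, either in the main fit or in the fit on all arrays.

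The count depended on single rats. It was 4 without naive rat 8F181 or 8M83, 8 without 8F183, 9 without cadmium rat 5F142 and 26 without 8M81. With saline and naive rats pooled as 1 control group, 16 genes were called, 5 higher and 11 lower. Dbp, Tef, Usp2, Per2, Bmal1, Npas2, Manf and Cdk2ap2 were among them, and so were Hsph1, Hnrnpc and Cxcl1.

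Time on cadmium was examined through the day 1 rats. No gene passed the test between cadmium at day 5 and cadmium at day 1 (0 of 11415 genes called, 0.0%; limma). An unadjusted p under 0.05 was reached by 491 genes, with a smallest adjusted p of 0.929. The difference of the cadmium effects, day 5 minus day 1, each against saline of its day, also called 0 genes (0.0%), with 299 at an unadjusted p under 0.05. The clock genes stood apart from saline at day 1 too. Dbp averaged 437 ± 137.8 (SD, n = 6) in cadmium and 148.2 ± 44.6 (SD, n = 7) in saline rats at day 1, against 700 ± 211 (SD, n = 6) and 280 ± 144 (SD, n = 5) at day 5. Its change in effect was -0.04 ± 0.37. Bmal1 averaged 59.2 ± 27.0 (SD, n = 6) and 129.2 ± 13.2 (SD, n = 7) at day 1, and its change in effect was -0.03 ± 0.29. The smallest p of this contrast belonged to Hspa1a, whose effect at day 5 exceeded that at day 1 by 0.74 ± 0.19 (limma, unadjusted p 0.000616, adjusted p 0.9997). Labels limit the day 1 rats, since the treatment text is absent for saline rat 1F104, names 5 days for saline rat 1M2 and says untreated for cadmium rat 5F137.

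The sexes were compared by the difference of their cadmium effects, males minus females, which called 0 genes (0.0% of 11415; limma). There were 238 genes at an unadjusted p under 0.05, and the smallest adjusted p was 0.877. Bmal1 had a difference of -0.94 ± 0.36 and Npas2 of -0.85 ± 0.42, the effects being further from 0 in males, and Dbp of 0.61 ± 0.55. With 2 saline females, the female effect rested on 1F105 and 1F106, which themselves lay far apart for Dbp (415 and 129.1).

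The clock genes lay at like levels in 2 other treated groups of day 5. Doxorubicin and valproic acid rats of day 5 were compared with cadmium rats because their clock genes stood closest, a choice made after the values were seen. Against valproic acid, 0 genes were called (0.0%; limma) and 369 had an unadjusted p under 0.05. The medians of the 2 clock lists were 0.05 and -0.01. With the sexes together, Dbp was at 413.8 to 983.5 in valproic acid rats, enclosing the cadmium range of 439.9 to 905, and its difference was 0.19 ± 0.10. Cadmium females (439.9 to 570.6) lay above valproic acid females (413.8 to 434.8). Cadmium males (854.2 to 905.4) lay within the range of valproic acid males (655.8 to 983.5). Leaving out valproic acid male 7M60 gave 4 calls.

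Against doxorubicin, 6 genes were called (0.0526%), 4 higher and 2 lower in cadmium rats, and none was a clock gene. The 4 included Hbb and Hba-a3, globin genes of red cells, and Alas2, the first enzyme of haem synthesis in red cell precursors. Hbb was at 58.9 to 74.5 in the 5 doxorubicin rats and at 3836 to 5940.0 in cadmium rats, higher by 5.79 (adjusted p 2.76e-13), and saline rats of day 5 lay at 4345 to 5664, in the range of cadmium. The medians of the clock lists against doxorubicin were -0.12 and 0.03. Because doxorubicin was chosen for its like clock genes, these medians and the lack of clock calls are no separate result. Without cadmium rats 5F141, 5M41 or 5M42 or doxorubicin rats 6F149, 6F151 or 6M50, 3 genes were called each time.

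The clock balance, the mean log2 signal of the Per and Rev-erb phase genes minus that of the opposite phase, sets all groups on 1 scale. Its zero has no meaning of its own, and it is used only to order groups. It was 1.67 ± 0.37 (SD, n = 6) in cadmium rats at day 5 and 0.54 ± 0.39 (SD, n = 5) in saline rats at day 5, and cadmium at day 5 ranked second of 15 groups. Doxorubicin at day 5 had 1.84 ± 0.25 (SD, n = 5) and valproic acid at day 5 had 1.66 ± 0.64 (SD, n = 6), and the SDs of the 3 groups overlapped. Naive rats had 0.38 ± 0.44 (SD, n = 6).

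The leading digit of the animal codes numbers the treatments from 1 (saline) to 8 (naive), and from saline to valproic acid the group means were higher at most steps. At day 1 the mean was 0.0043 in saline, 0.18 in gentamicin, 0.59 in cisplatin, 0.79 in tobramycin, 1.18 in cadmium, 1.27 in doxorubicin and 1.40 in valproic acid, higher at 6 of 6 steps. At day 5 the values in the same order were 0.54, 0.57, 1.02, 1.08, 1.67, 1.84 and 1.66, higher at 5 of 6 steps. Cadmium, with digit 5, lay between tobramycin and doxorubicin at both days, and at day 5 valproic acid, with digit 7, lay just under cadmium. The naive rats, with digit 8, had a mean of 0.38 and were outside this order. The order in which animals were killed and the hour of each autopsy are not stated in the sources used here, so the treatment and a place in such an order cannot be told apart for the clock genes. Each treatment has 1 digit, so 2 treatments cannot be compared within a digit.

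**Figure D5:**
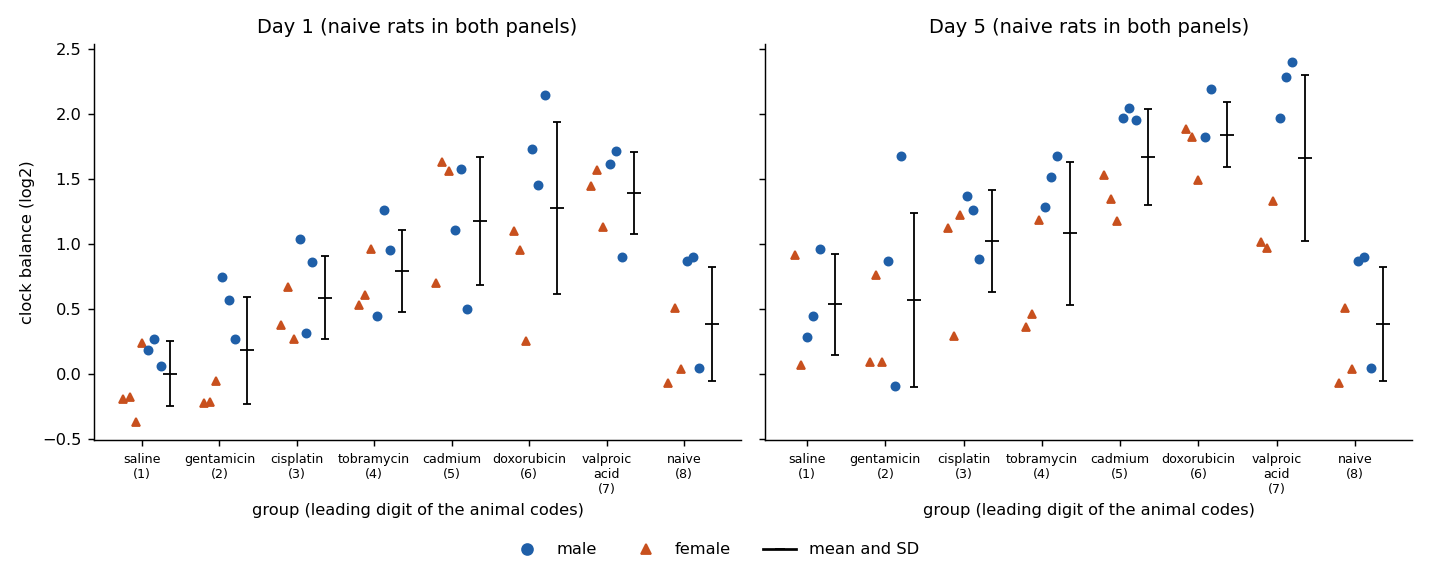
Clock balance (y axis, log2) of every rat by treatment group in the order of the leading digit of the animal codes (x axis), at day 1 (left) and day 5 (right), males as blue circles and females as orange triangles, with mean and SD in black. At day 1 the means climb from saline (0.0043) through cadmium (1.18) to valproic acid (1.40), at day 5 they climb from saline (0.54) through cadmium (1.67) to doxorubicin (1.84) with valproic acid at 1.66, and the naive rats, shown in both panels, lie at 0.38.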

How the data were processed

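Kidney RNA of 89 rats was hybridised to 1-colour Affymetrix rat arrays, 1 per rat. The authors deposited a linear intensity (signal) per probe set for 31099 probe sets, made with MAS5 per the submitters' processing notes, and the version and scaling are not stated in the sources used here. The 2% trimmed mean ran from 91.5 to 352 between arrays (91.5 to 214 in the 11 compared), so arrays were scaled to a common 181. The 57 control probe sets, 436 with several symbols and 9780 without a listed symbol were left out. Of 14217 named genes, each with its brightest probe set, 11415 had at least 5 arrays above 33.2 and were tested on log2(signal + 16).

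Tests used limma 3.58.1 under R 4.3.3 (lmFit and trended, robust eBayes; tables read by version 1.17.8 of data.table), a sex term, and Benjamini-Hochberg adjustment over all genes tested at 0.05, and were tested on simulated data. There were 8 comparisons. The main fit held the rats of both groups. Where rats are said to exceed the saline mean, log2 values of 1 sex were used. Nothing says more than that rats are separate animals, and signals carry no count, so the number of arrays limits precision. No paired analysis was possible because a rat has a single array and no code ties it to a rat of another group.

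Named genes were the 8 smallest p on each side of the main fit, genes called on all arrays, the 3 smallest p of each of 42 lists, the 4 smallest p on each side of every other comparison, and a fixed set of metal, injury, clock and transport genes, of which Cyp24a1 was too dim to test. The lists and comparisons were chosen with earlier results of these data known. Alternatives were pseudocounts of 1 and 64, quantile or 75th percentile scaling, other filters, all probe sets, no sex term, plain eBayes, array weights, all arrays, pooled controls, an RNA quality covariate and leaving out rats. Promoter windows are those of RefSeq on GRCr8. Figures used matplotlib 3.10.9 in Python 3.11.15.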

Additional observations from a re-analysis of the deposited data

Results flagged for a closer look

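Of 72 groups examined (36 named genes, cadmium and saline at day 5), 5 held 1 rat that stood apart from the rest of its group, where chance alone gives about 1 in 20. Saline female 1F105 was highest for Cdh1, at 1347 against 796 to 880.4 in the other saline rats, and lowest for Cdk2ap2, at 882.9 against 1131 to 1223. Saline female 1F106 was lowest for Hsph1, at 1128 against 1459 to 1570.0, and highest for Lrp2, at 7051 against 4862 to 5341. Cadmium female 5F140 was lowest for Spp1, at 831.0 against 2076 to 3447. Rats 1F106 and 5F140 are the 2 with the highest GAPDH 3′ to 5′ difference (1.57 and 1.45), and the part of RNA quality in their values was not tested.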

How the results depend on the processing

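The main comparison gave 0 calls under most alternatives. It gave 1 call with array quality weights (Usp2), 7 with the fit on all arrays and 16 with saline and naive rats pooled, and 0 to 1 when each rat was left out (1 without 1F105, Dbp). The fit on all arrays gave 0 to 15 calls when each rat was left out and 2 without both 5F140 and 1F106, an alternative chosen after seeing the data. Leaving out each rat gave 4 to 26 calls against naive rats, 3 to 6 against doxorubicin, 0 to 4 against valproic acid, and 0 for the other 3 comparisons. The cause of these moves was not tested. No named gene reversed a call.

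List medians against saline moved by more than the SD between rats as follows. The Per and Rev-erb phase genes were at 0.55 with array weights and 0.55 without both arrays, and at 0.49 to 0.78 when each rat was left out. The opposite phase was at -0.51 with a pseudocount of 1, -0.26 with 64, -0.20 with all probe sets, -0.33 with array weights and -0.33 without both arrays, and at -0.54 to -0.32 when each rat was left out. Glucocorticoid genes were at 0.30 with array weights and at 0.093 to 0.22 when each rat was left out. Heat shock genes were at -0.0076 with quantile scaling and -0.0071 without the sex term, and at -0.107 to -0.022 when each rat was left out. Apoptosis regulators were at -0.0086 with quantile scaling, 0.0097 without the sex term, -0.015 with array weights, 0.0004 with all arrays, -0.0026 with pooled controls and -0.004 with the RNA quality covariate, and at -0.040 to 0.026 when each rat was left out. When each rat was left out, stress genes of the endoplasmic reticulum were at -0.127 to -0.016, podocyte genes at 0.020 to 0.22 and junction genes at -0.086 to 0.034.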

Other observations

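Small groups of genes not described above lay near saline. Of 25 tested genes of fatty acid oxidation 6 were higher in cadmium rats (median -0.05), with Cyp4a3 at -0.29 and Pdk4 at -0.45. The other probe set of Pdk4 was at -0.01. Of 21 genes of sterol and fatty acid synthesis 6 were higher (median -0.05), with Dhcr7, which makes cholesterol in its last step, at -0.62 (limma, unadjusted p 0.00474). Of 25 genes of the respiratory chain 6 were higher (median -0.05), and of 19 lysosomal genes 4 were higher (median -0.08). In the endothelium, Flt1, a receptor for VEGF, changed by 0.48 ± 0.16 and Ehd3 by 0.59 ± 0.20, while 6 of 16 endothelial genes were higher. The change of Flt1 was that of its brightest probe set, and its other probe sets changed by 0.08 and -0.03. Akr1b7, a gene of renin cells, was at 832 to 982 in cadmium females and 1103 and 2058 in saline females, and was dim in all 6 males of both groups.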
